A study of Homo sapiens with 18 samples.

Results

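The genes described here are 10 transcription factor genes that answer growth and stress signals: the AP-1 genes FOS, FOSB, FOSL1, FOSL2, JUN, JUNB and JUND, together with EGR1, ATF3 and MYC. They were chosen by name, with earlier results of these data known. They are 10 of the 60603 genes counted in each library, and all 10 were found by matching Ensembl identifiers to symbols. FOS and JUN proteins pair through leucine zippers to form AP-1, a dimer that binds enhancers and promoters and whose make-up sets its activity. Many of these genes are immediate early genes: MAP kinases switch them on within minutes, without new protein synthesis, and their short-lived mRNAs fall again once a signal ends. FOSL1 is known as a major AP-1 gene of basal-like breast cancer cells.

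MDA-MB-231 is a human line of triple-negative breast cancer, doxorubicin is a topoisomerase poison that breaks DNA, and ZMYND8 is a chromatin reader that the study overexpressed to ask how it changes the answer to the drug. Poly(A) RNA was sequenced in 18 libraries from 9 conditions, with 2 libraries per condition that the protocol calls biological replicates. The transient system had control cells, cells treated for 48 h with 0.6 µM doxorubicin, and cells that by their label received FLAG-tagged ZMYND8 by transfection before the same treatment. The labels name the first group only as control, whereas the protocol mentions an empty vector and a vehicle.

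The inducible system used lines that stably carried pInducer20, a lentiviral vector switched on by doxycycline, with the cDNA of GFP or of FLAG-ZMYND8. Cells with the vector had been selected with G418, and both lines received 250 ng/mL doxycycline. Each line was sequenced without doxorubicin (called untreated below) and after 6 and 48 h of 0.6 µM doxorubicin, with doxycycline present throughout. There was 1 line per construct, so the construct and the line that carries it cannot be told apart. How long the cells without doxorubicin had been in doxycycline is not given in the sources used here.

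The authors counted read pairs over the exons of each gene, and these raw counts are the values used. Transient control libraries held 5858550 counts in replicate 1 and 5904185 in replicate 2. Doxorubicin libraries of that system held 5729294 in replicate 1 and 24713822 in replicate 2, and those labelled ZMYND8 plus doxorubicin held 5972396 in replicate 1 and 5740091 in replicate 2. For GFP cells the replicates held 20864386 and 20053500 counts untreated, 20356028 and 19614037 after 6 h, and 20175357 and 21176172 after 48 h. For ZMYND8 cells they held 18300628 and 23724398 untreated, 22059838 and 20846331 after 6 h, and 22142730 and 20888496 after 48 h. Levels are given as CPM, counts scaled to library size with edgeR's TMM factors, and as RPKM, CPM per kilobase of exon, where genes are set against each other.

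Differences were tested with edgeR's quasi-likelihood test across all genes that passed its filter on low counts, 15697 for the transient and 18801 for the inducible libraries. A gene was called at a Benjamini-Hochberg adjusted p of at most 0.05, over all genes tested in the comparison. All 10 genes passed the filter in the inducible system. In the transient system 9 of 10 passed, and FOSB did not. Exact permutation of 2 libraries against 2 reaches no two-sided p under 0.333, so no such test is given. TMM scaling held the all-gene median of log2 fold changes near 0, whereas scaling to total counts moved it up by 0.25 at 48 h against untreated in GFP cells and by 0.21 in ZMYND8 cells. That shift was 0.25 and 0.29 at 48 h against 6 h in GFP and ZMYND8 cells, and 0.15 and 0.14 for the treated transient groups against control. Groups of 2 libraries often did not overlap. Between the lines at each time, 38% to 38.2% of all genes were higher and 36% to 42.1% lower without overlap. With doxorubicin against untreated these shares were 31.6% to 42.2% and 33.2% to 39.5%. Because these are bulk samples, a smaller share of cells that express a gene and less of its RNA per cell cannot be told apart.

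ZMYND8 itself stood at 209 and 208 CPM in untreated GFP cells and at 922 and 927 CPM in untreated ZMYND8 cells. After 6 h of doxorubicin it was 93.8 and 99.4 CPM in GFP cells against 829 and 898 CPM in ZMYND8 cells, and after 48 h 139 and 141 CPM against 1001 and 924 CPM. Every ZMYND8-line library therefore lay above every GFP-line library. All 5 of 5 MDA-MB-231 markers were detected, led by VIM, with a summed level of 662 to 1396 RPKM in the inducible libraries. SPARC, however, ranged from 5 to 3467 counts over the 12 inducible libraries (0.0487 to 36.7 RPKM when scaled to total counts). At its lowest it was thus nearly absent, which the sum does not show.

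Markers of other cells were low. The 6 fibroblast markers summed to at most 2.90 RPKM in any inducible library, led by COL1A1, with no counts of COL3A1, DCN, LUM or PDGFRA in some libraries. The 4 endothelial markers summed to 0.231 to 1.14 RPKM, led by PECAM1, and CDH5 had no counts in 5 of 12 libraries. The 5 leukocyte markers moved with the line. They summed to between 8.90 and 12.1 RPKM in the libraries of GFP cells and to between 1.297 and 2.23 RPKM in those of ZMYND8 cells, and nearly all of this was CD14. CD3E had no counts in 7 of the 12 inducible libraries. The 2 leukocyte and 3 endothelial markers that could be tested were all lower in ZMYND8 than GFP cells at each time, and 5 of 5 fibroblast markers were lower at 6 h. At 48 h of doxorubicin 5 of 5 MDA-MB-231 markers fell in both lines (medians −0.87 and −0.79). At that time 4 of 5 fibroblast markers rose in GFP cells, and 2 of 2 leukocyte and 2 of 3 endothelial markers rose in ZMYND8 cells. Libraries at 48 h also held more genes with a count (30201 to 30566, against 22477 to 23609 before) and, within each line, a larger mitochondrial share than untreated ones. At each time the mitochondrial share was higher in both ZMYND8-line libraries than in both GFP-line libraries. The 9 luminal breast markers, led by KRT18, which MDA-MB-231 cells also express, summed to 266 to 296 RPKM in GFP cells and 203 to 236 RPKM in ZMYND8 cells. The part of these shifts in the differences below was not tested.

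In 5 inducible conditions the highest of the 10 genes per length were FOSL1 and JUND, in either order. Untreated GFP cells held 118 ± 10.6 RPKM of JUND, 94.1 ± 4.44 of FOSL1, 52.4 ± 0.155 of JUN, 41.0 ± 1.05 of JUNB, 40.6 ± 1.25 of MYC and 36.2 ± 0.976 of FOSL2 (mean ± SD, n = 2 for these and the values that follow). EGR1 at 6.70 ± 0.0572, ATF3 at 3.33 ± 0.347, FOS at 0.497 ± 0.140 and FOSB at 0.116 ± 0.0165 RPKM were lowest, and JUNB and MYC did not differ beyond their spread. The order changed with ZMYND8 and doxorubicin. In ZMYND8 cells after 48 h, JUND at 103 ± 1.59, FOSL1 at 101 ± 1.54 and JUN at 98.8 ± 2.46 RPKM were close together at the top, followed by JUNB at 75.4 ± 1.31 and EGR1 at 73.2 ± 5.06, which overlapped. FOSL2 stood at 55.3 ± 0.0877, MYC at 45.0 ± 0.129, ATF3 at 42.1 ± 0.532, FOS at 13.6 ± 1.40 and FOSB at 2.01 ± 0.216 RPKM.

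**Figure D1:**
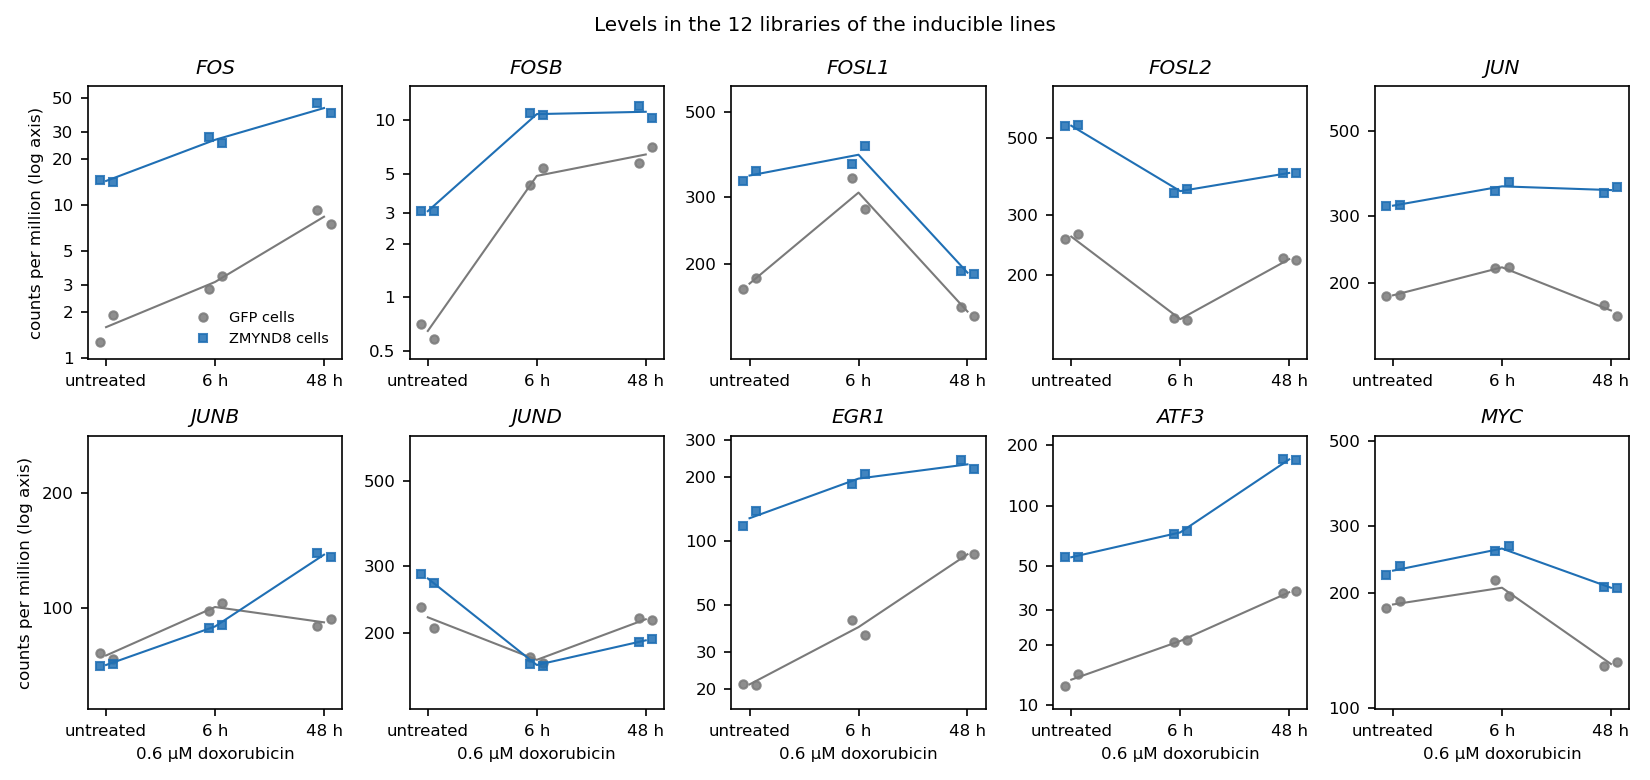
Level of each gene in every library of the inducible lines, in CPM on a log axis whose range differs between panels; points are libraries, with 2 per condition, and lines join the means. FOS, FOSL2, JUN, EGR1 and ATF3 were higher in all 6 libraries of ZMYND8 cells than in all 6 of GFP cells, whereas JUNB and JUND crossed. The share of all genes with such separation over all libraries was not counted.

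Without doxorubicin, 9 of the 10 genes were higher in ZMYND8 cells than in GFP cells and none was lower, where 28.7% of all genes tested were called higher and 29.5% lower. The median log2 difference was 1.00 for the 10 genes and 0 for all genes. After 6 h the counts were 8 higher and 1 lower, against 28.9% and 26.6% of all genes, and after 48 h 9 higher and 1 lower, against 28.4% and 31.6%. The medians were 0.93 and 0.81 for the 10 genes and 0 and −0.04 for all genes. Most of these genes were thus called higher in the ZMYND8 line at each time, a larger share than among all genes. Because the genes were chosen with earlier results of these data known, this contrast only describes them.

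Doxorubicin moved the 10 genes in both directions. In GFP cells 8 rose and 2 fell at 6 h, where 22.1% of all genes rose and 25.8% fell. At 48 h 5 rose and 4 fell against untreated, with TMM scaling each a somewhat larger share than the 32.4% and 31.8% of all genes. Scaling to total counts gave 7 up and 1 down there, and DESeq2 5 up and 2 down, so the number of falls depended on the fit. From 6 h to 48 h 6 rose and 4 fell in GFP cells against 32.0% and 30.2%. ZMYND8 cells had 8 up and 2 down at 6 h, beside 21.8% and 19.0% of all genes. At 48 h these cells had 6 up and 4 down against untreated, beside 31.6% and 30.8%, and 6 up and 2 down against 6 h, beside 30.2% and 31.3%. The comparisons share their untreated and 6 h libraries. With doxorubicin the rises at 6 h stood farthest above their share among all genes, and with 10 genes the other counts were near or moderately above theirs.

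Whether the response to doxorubicin differed between the lines was tested as an interaction, the log2 change in ZMYND8 cells minus that in GFP cells. At 6 h the interaction was called positive for 1 gene and negative for 3, beside 7.86% and 5.52% of all genes. At 48 h it was called positive for 3 and negative for 6, beside 12.7% and 15.8%. A positive interaction can mean a larger rise or a smaller fall. A negative one can mean a smaller rise or a deeper fall, and the genes below show each of these.

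**Figure D2:**
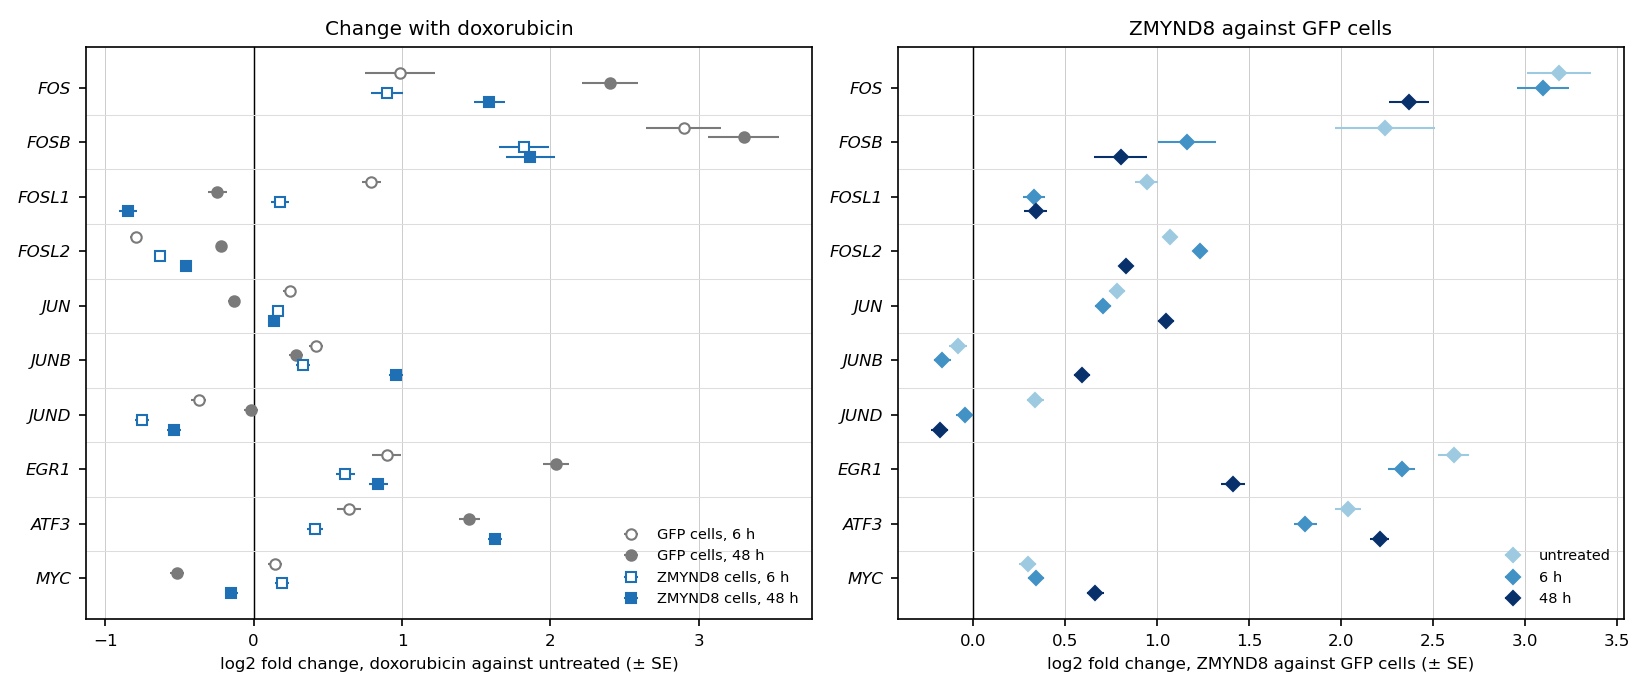
Log2 fold change of each gene with its standard error, for doxorubicin against untreated in each line (left) and for ZMYND8 against GFP cells at each time (right), from 2 libraries per condition. FOS, FOSB, EGR1 and ATF3 lay to the right of 0 in every comparison shown; under scaling to total counts the small 48 h values of FOSL1, FOSL2, JUN and JUND in GFP cells and of MYC in ZMYND8 cells changed sign.

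FOS (ENSG00000170345.10, chromosome 14, 75278826 to 75282230, plus strand) encodes the founding partner of JUN in AP-1. RefSeq promoter windows on GRCh38.p14 (from 250 bases before to 50 after the transcription start) were available for 8 of the 10 genes, and FOSL1 and MYC had no entry. Both strands were searched for the AP-1 site TGACTCA, the CRE-like site TGACNTCA, the CRE core TGACGT that lies within one of its forms, the E-box CACGTG, the EGR site GCGNGGGCG, the TATA box TATAAA and, by name, the CArG box of serum response elements. These were found in 4.949%, 7.717%, 7.982%, 7.256%, 9.434%, 11.53% and 1.293% of the 35116 windows of all genes. The stretches before the starts of FOS (chr14:75278726-75278825) and FOSB (chr19:45467895-45467994), both on the plus strand, are shown because both genes rose with doxorubicin, though over different times. Capitals mark the CRE core and the TATA box.
FOS: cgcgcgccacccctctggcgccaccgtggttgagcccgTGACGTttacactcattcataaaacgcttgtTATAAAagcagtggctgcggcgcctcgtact
FOSB: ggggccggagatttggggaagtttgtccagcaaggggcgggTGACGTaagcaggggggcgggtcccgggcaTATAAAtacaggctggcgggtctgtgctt
Both hold the CRE core in the same strand and at a like distance, starting 64 bases before the start in FOS and 60 in FOSB, with the TATA box at 33 and 30 bases. These matches describe the letters only.

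FOS mRNA was near the lower end of detection in untreated GFP cells, with 25 and 36 counts. Its level was 1.27 and 1.90 CPM there, 2.83 and 3.43 CPM after 6 h and 9.23 and 7.53 CPM after 48 h. In ZMYND8 cells FOS stood at 14.6 and 14.1 CPM untreated, 27.8 and 25.7 CPM after 6 h and 46.4 and 40.1 CPM after 48 h. All 6 conditions were separate from each other, and even untreated ZMYND8 cells exceeded GFP cells after 48 h of drug. FOS was 9.08-fold higher in untreated ZMYND8 than GFP cells (log2 difference 3.18 ± 0.17 (SE), adjusted p 8.31e-15 by edgeR's test, higher in 2 of 2 libraries). That difference was 3.10 ± 0.14 at 6 h and 2.37 ± 0.11 at 48 h. Doxorubicin raised FOS 1.98-fold at 6 h and 5.29-fold at 48 h in GFP cells, and 1.86-fold and 3.01-fold in ZMYND8 cells. The interaction did not pass at 6 h (−0.09, adjusted p 0.896) and was −0.81 ± 0.23 at 48 h (adjusted p 0.00824). Without replicate 1 of untreated GFP cells, which was the lower of the pair, the 48 h interaction was −0.55 and was not called (adjusted p 0.164).

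FOSB (ENSG00000125740.14, chromosome 19, 45467995 to 45475179, plus strand) encodes another inducible FOS protein. Per length its mean was the lowest of the 10 in each inducible condition. In GFP cells at 6 h, however, its libraries overlapped those of FOS per length, and FOS was lower in CPM. FOSB stood at 0.710 and 0.580 CPM in untreated GFP cells, 4.30 and 5.41 CPM after 6 h and 5.73 and 7.11 CPM after 48 h. ZMYND8 cells held 3.07 and 3.06 CPM of FOSB untreated, 10.99 and 10.7 CPM after 6 h, and 12.0 and 10.3 CPM after 48 h. Most of the rise was thus in place by 6 h, and in ZMYND8 cells the 6 h and 48 h libraries overlapped. In GFP cells the rise at 6 h was 7.45-fold and at 48 h 9.86-fold, with adjusted p of 2.44e-10 and 2.16e-12 by edgeR's test. In ZMYND8 cells it was 3.53-fold and 3.64-fold. The interaction was −1.08 at 6 h (adjusted p 0.0289) and −1.44 at 48 h (adjusted p 0.00104), so the fold rise was smaller in the line that started higher. The 6 h interaction rests on few counts, 14 and 11 in untreated GFP cells. It was lost without replicate 1 (−1.23, adjusted p 0.0728) or 2 (−0.94, 0.16) of untreated GFP cells, without replicate 2 of GFP cells at 6 h (−0.90, 0.113) and without replicate 2 of untreated ZMYND8 cells (−1.08, 0.0604). The further rise from 6 to 48 h in GFP cells, 0.40, was not called without replicate 1 at 6 h (0.24) or replicate 2 at 48 h (0.23).

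FOSL1 (ENSG00000175592.8, chromosome 11, 65892049 to 65900573, minus strand) encodes a FOS relative without the transactivation domain of FOS, and it was the bulk of FOS-family mRNA. Its level was 172 and 184 CPM in untreated GFP cells, 337 and 278 CPM after 6 h and 154 and 146 CPM after 48 h. ZMYND8 cells had 331 and 351 CPM of FOSL1 untreated, 365 and 408 CPM after 6 h and 192 and 188 CPM after 48 h. It peaked at 6 h and was lowest at 48 h in both lines. The 6 h rise was 1.73-fold in GFP cells and 1.13-fold in ZMYND8 cells, with an interaction of −0.61 ± 0.09 (adjusted p 1.72e-05). From 6 to 48 h FOSL1 fell 2.05-fold in GFP cells and 2.04-fold in ZMYND8 cells. Against untreated, the 48 h change was −0.85 in ZMYND8 cells and −0.24 in GFP cells, the latter 0.00 under scaling to total counts and not called with DESeq2 (adjusted p 0.0699), and the interaction was −0.60 ± 0.09. The small rise in ZMYND8 cells at 6 h, 0.18, was not called without replicate 1 of untreated cells (0.13) or replicate 2 at 6 h (0.10).

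FOSL2 (ENSG00000075426.12, chromosome 2, 28392448 to 28417317, plus strand) encodes the other FOS relative of this kind. Its window held the only AP-1 site among the 8 genes, just after the start (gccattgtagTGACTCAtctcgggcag, chr2:28392852-28392878, plus strand), and a CRE core 66 bases before it. The RefSeq start used for FOSL2 and both matches lie inside the gene span given here. FOSL2 stood at 254 and 264 CPM in untreated GFP cells and fell to 150 and 149 CPM after 6 h. It was 224 and 222 CPM after 48 h. In ZMYND8 cells it was 541 and 544 CPM, then 346 and 355 CPM, then 396 and 395 CPM. Unlike FOS and FOSB it was at its lowest at 6 h in both lines, and every ZMYND8-line library exceeded every GFP-line library. The difference between lines was 2.09-fold untreated, 2.35-fold at 6 h and 1.78-fold at 48 h, with adjusted p of at most 1.98e-16 by edgeR's test. Doxorubicin lowered FOSL2 by 1.73-fold in GFP cells and 1.55-fold in ZMYND8 cells at 6 h, with an interaction of 0.16 (adjusted p 0.0438). That call was lost when any 1 of the 8 libraries except replicate 1 of ZMYND8 cells at 6 h was left out (0.14 to 0.19, adjusted p 0.0511 to 0.202). The 6 h call was also lost with DESeq2, scaling to total counts, median-of-ratios scaling, no filter on counts, the replicate block and only the groups compared. At 48 h the change was −0.22 in GFP cells, which was 0.03 under scaling to total counts, and −0.45 in ZMYND8 cells, with an interaction of −0.24 ± 0.05.

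Summed over the 4 genes per length, FOS-family mRNA was 131 ± 5.54 RPKM in untreated GFP cells and 261 ± 7.93 RPKM in untreated ZMYND8 cells. FOSL1 made up 71.9% of it in GFP cells and 69.1% in ZMYND8 cells. FOS made up 0.378 ± 0.0911% in untreated GFP cells and 2.30 ± 0.266% after 48 h, against 1.73 ± 0.0944% and 7.91 ± 0.669% in ZMYND8 cells. At 48 h in ZMYND8 cells FOSL1 was down to 58.7% and FOSL2 up to 32.3%, on a sum of 171 ± 3.25 RPKM. The inducible FOS and FOSB therefore stayed a minor part of FOS-family mRNA in each inducible condition, though FOS took a larger share in each ZMYND8 condition than in the GFP condition of the same time.

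**Figure D3:**
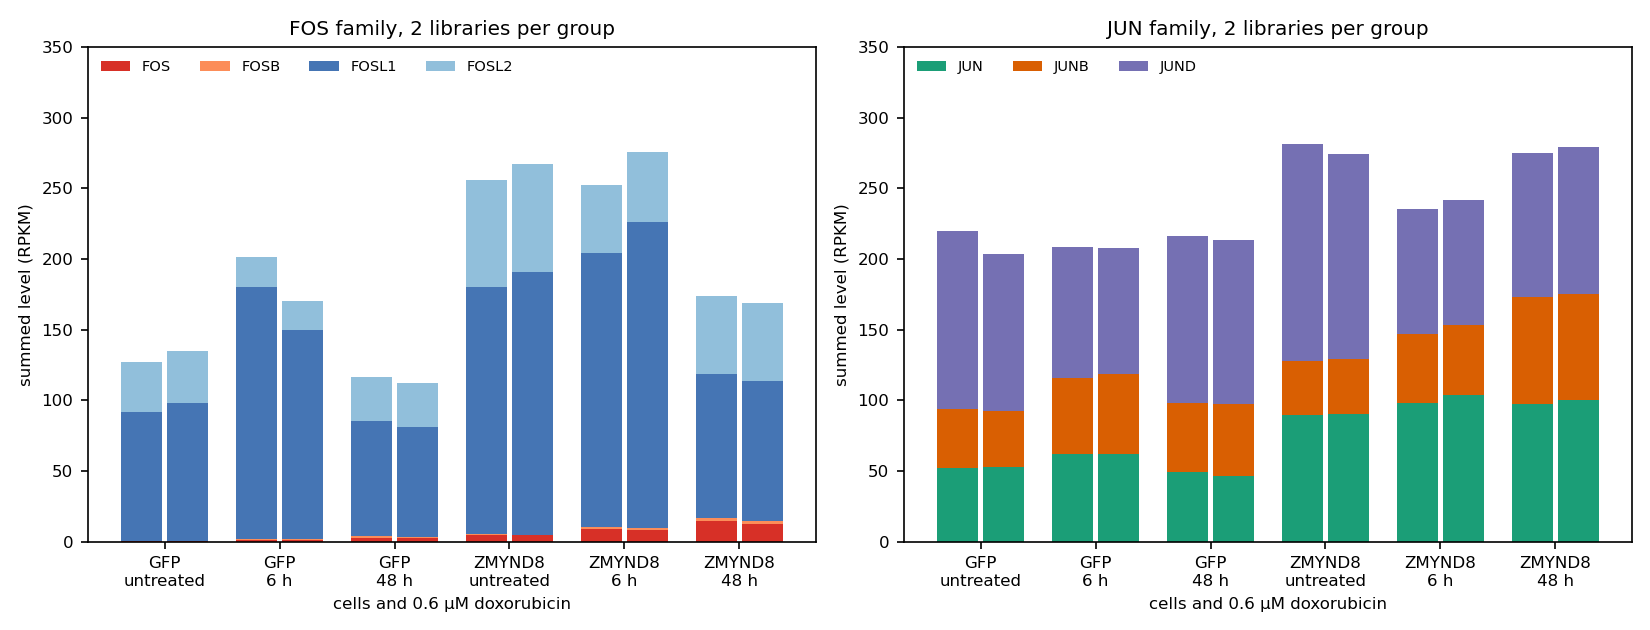
Summed RPKM of the FOS family (left) and the JUN family (right) in each of the 12 inducible libraries, as stacked bars with 2 libraries per condition. FOSL1 filled most of the left bars, from 58.7% to 87.7% by condition, and JUND was the largest part of the right bars except in ZMYND8 cells at 6 h, where JUN made up 42.4% and JUND 37.2%.

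JUN (ENSG00000177606.6, chromosome 1, 58780788 to 58784327, minus strand) encodes the main partner of FOS proteins and is known to bind its own promoter. The CRE-like site in its window starts 67 bases before the start (ggccttggggTGACATCAtgggctattt, chr1:58784097-58784124, minus strand), and the AP-1 site itself was not among these letters. The RefSeq start used for JUN and this match both lie inside the gene span given here. JUN stood at 185 and 186 CPM in untreated GFP cells, 219 and 220 CPM after 6 h and 175 and 164 CPM after 48 h. The ZMYND8 line had 317 and 320 CPM of JUN, then 347 and 368 CPM, then 344 and 356 CPM. The lines did not overlap at any time, while changes with the drug were small. JUN was 1.72-fold higher in ZMYND8 cells untreated, 1.63-fold at 6 h and 2.07-fold at 48 h, with adjusted p of at most 4.99e-14. At 48 h JUN was −0.13 against untreated in GFP cells (0.11 under scaling to total counts) and 0.14 in ZMYND8 cells, and the interaction was 0.27 ± 0.06 (adjusted p 0.000922). The call in GFP cells was lost without replicate 2 at 48 h (−0.10), with DESeq2 (−0.09, adjusted p 0.0764), with median-of-ratios scaling and with a stricter filter, and that in ZMYND8 cells without replicate 1 of untreated cells or replicate 2 at 48 h (0.10 each).

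JUNB (ENSG00000171223.6, chromosome 19, 12791486 to 12793315, plus strand) encodes a JUN protein that often restrains JUN. Its level was 76.4 and 73.7 CPM in untreated GFP cells, 98.2 and 103 CPM after 6 h and 89.8 and 93.6 CPM after 48 h. In the ZMYND8 line JUNB was 70.6 and 71.2 CPM, then 88.8 and 90.1 CPM, then 140 and 136 CPM. It was the 1 gene of the 10 with no higher level in untreated ZMYND8 cells (−0.08, adjusted p 0.152), and it was lower there at 6 h (−0.17, adjusted p 0.00286). At 48 h the order turned, with JUNB 1.504-fold higher in ZMYND8 cells (0.59 ± 0.04, adjusted p 4.9e-12). The 48 h rise was 1.95-fold in ZMYND8 cells and 1.22-fold in GFP cells, and the interaction was 0.67 ± 0.07 (adjusted p 8.77e-09). From 6 to 48 h in GFP cells JUNB changed by −0.13 in edgeR's test but by 0.11 under scaling to total counts, and was not called without replicate 2 at 6 h or replicate 1 at 48 h (−0.11 each). The 6 h difference between lines was not called without replicate 2 of GFP cells at 6 h (−0.14, adjusted p 0.0552).

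JUNB shares 259 bases, 14.2% of its exon bases, with HOOK2 on the other strand. In 694 pairs, a gene had at least 90% of its exon bases within exons of a longer gene on the other strand. The summed read density of these inner genes was 0.277 to 0.321 of that of the longer genes in inducible libraries, but 2.64 to 3.06 of it in transient libraries. The transient counts may thus mix both strands or stand for the wrong strand, which was not settled here. Every transient value below bears this doubt, and JUNB values there may hold reads of HOOK2. HOOK2 stood at 60.7 and 37.2 CPM in transient control cells, beside 62.2 and 23.1 CPM of JUNB, and the share of such reads was not tested. No other gene of the 10 overlaps an exon on the other strand.

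JUND (ENSG00000130522.5, chromosome 19, 18279760 to 18281622, minus strand) encodes the JUN protein that is present without a stimulus. Its promoter is shown as a contrast with FOS and FOSB, because its mRNA moved the other way with doxorubicin (chr19:18281623-18281872, read 5′ to 3′ on the minus strand). Capitals mark a CRE-like site that holds the CRE core on both strands, 200 bases before the start, and a CRE core on the other strand at 87 bases.
JUND: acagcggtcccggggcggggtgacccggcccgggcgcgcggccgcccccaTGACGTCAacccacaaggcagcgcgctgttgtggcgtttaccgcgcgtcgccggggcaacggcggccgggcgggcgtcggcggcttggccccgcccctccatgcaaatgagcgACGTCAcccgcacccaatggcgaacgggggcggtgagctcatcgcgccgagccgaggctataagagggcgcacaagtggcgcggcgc
JUND was 234 and 206 CPM in untreated GFP cells, 174 and 167 CPM after 6 h and 219 and 216 CPM after 48 h. ZMYND8 cells held 286 and 271 CPM of JUND, then 166 and 165 CPM, then 189 and 194 CPM. It fell at 6 h in both lines, by 1.29-fold in GFP cells and 1.68-fold in ZMYND8 cells (interaction −0.38 ± 0.07, adjusted p 0.000296). By 48 h it was −0.02 against untreated in GFP cells, not called there but 0.23 and called under scaling to total counts. In ZMYND8 cells it was −0.54 ± 0.05, and the interaction was −0.52 ± 0.07. JUND was the 1 gene of the 10 that was lower in ZMYND8 than GFP cells at 48 h (−0.18, adjusted p 0.00146) after being higher without the drug (0.34, adjusted p 6.43e-07).

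Summed JUN-family mRNA was 212 ± 11.5 RPKM in untreated GFP cells, 208 ± 0.580 RPKM after 6 h and 215 ± 1.70 RPKM after 48 h. In ZMYND8 cells it was 278 ± 4.93, 239 ± 4.19 and 277 ± 2.74 RPKM, lower at 6 h. JUND fell from 53.7% to 37.1% of the sum between untreated and 48 h in ZMYND8 cells, while JUNB went from 13.9% to 27.2% and JUN from 32.4% to 35.7%. In GFP cells JUND was 55.8% untreated, 43.9% at 6 h and 54.4% at 48 h, with JUN at 29.8% and JUNB at 26.4% at 6 h.

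EGR1 (ENSG00000120738.8, chromosome 5, 138465479 to 138469303, plus strand) encodes a zinc finger activator that serum response factor switches on and that its corepressors NAB1 and NAB2 hold back. Its promoter (chr5:138465329-138465478, plus strand) is shown since EGR1 was among the genes with the largest differences between lines. Capitals mark, in order, a CRE core on the other strand, CArG boxes starting 105 and 83 bases before the start, and another CRE core on the other strand.
EGR1: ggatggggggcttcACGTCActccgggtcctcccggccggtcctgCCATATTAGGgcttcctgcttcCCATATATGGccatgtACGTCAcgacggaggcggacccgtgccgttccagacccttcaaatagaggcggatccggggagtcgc
No other of the 8 genes had a CArG box in its window, and none had an E-box. EGR1 was also the only one with an EGR site, 198 bases before the start.

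EGR1 mRNA was 21.1 and 20.9 CPM in untreated GFP cells, 42.4 and 35.9 CPM after 6 h and 86.2 and 86.6 CPM after 48 h. In ZMYND8 cells EGR1 was 117 and 138 CPM untreated, 186 and 208 CPM after 6 h and 241 and 219 CPM after 48 h. The 6 conditions were separate, and untreated ZMYND8 cells were already above GFP cells at 48 h. EGR1 was 6.11-fold higher in untreated ZMYND8 than GFP cells (2.61 ± 0.08, adjusted p 9.21e-20, 2 of 2 libraries), 5.02-fold at 6 h and 2.66-fold at 48 h. Doxorubicin raised it 1.86-fold at 6 h and 4.11-fold at 48 h in GFP cells, and 1.53-fold and 1.79-fold in ZMYND8 cells. At 48 h the interaction was −1.20 ± 0.11 (adjusted p 2.44e-09). At 6 h it was −0.28 (adjusted p 0.12), and it was called without replicate 2 of GFP cells at 6 h (−0.40), replicate 1 of untreated ZMYND8 cells (−0.40) or replicate 2 of ZMYND8 cells at 6 h (−0.36). The 6 h interaction was also called with scaling to total counts (−0.36) and with no filter on counts (−0.32). The rise from 6 to 48 h in ZMYND8 cells, 0.22, was not called without replicate 1 at 6 h (0.13) or replicate 1 at 48 h (0.14).

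ATF3 (ENSG00000162772.17, chromosome 1, 212565334 to 212620777, plus strand) encodes a CREB-family factor induced by many stresses, including DNA damage, that as a homodimer represses its targets. It has 2 starts in RefSeq, and a sequence that ends 74 bases before the first (chr1:212565234-212565333, plus strand) is shown because ATF3 rose in both lines. Capitals mark a CRE-like site that starts 123 bases before the start.
ATF3: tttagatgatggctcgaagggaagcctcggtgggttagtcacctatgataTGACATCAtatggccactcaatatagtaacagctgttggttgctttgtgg
The window of the other start held a TATA box 230 bases before it. Counts per gene do not say which start was used.

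ATF3 was 12.5 and 14.5 CPM in untreated GFP cells, 20.7 and 21.4 CPM after 6 h and 36.4 and 37.3 CPM after 48 h. The ZMYND8 line held 55.2 and 55.1 CPM of ATF3, then 72.1 and 74.8 CPM, then 172 and 169 CPM. All conditions were separate, in the same order as for FOS and EGR1. The line difference was 4.10-fold untreated, 3.49-fold at 6 h and 4.62-fold at 48 h (2.21 ± 0.05, adjusted p 1.08e-22, 2 of 2 libraries). The rise with doxorubicin came late, 1.56-fold at 6 h and 2.74-fold at 48 h in GFP cells and 1.33-fold and 3.09-fold in ZMYND8 cells. ATF3 was the 1 gene of the 10 called in neither interaction, which was −0.23 at 6 h (adjusted p 0.126) and 0.17 at 48 h (adjusted p 0.171), so its higher level in ZMYND8 cells came with fold rises that the test did not tell apart. Under scaling to total counts the 6 h value was −0.31 and was called (adjusted p 0.033).

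MYC (ENSG00000136997.19, chromosome 8, 127735434 to 127742951, plus strand) encodes a factor that pairs with MAX and drives ribosome production, metabolism and division. Its level was 182 and 190 CPM in untreated GFP cells, 216 and 196 CPM after 6 h and 129 and 131 CPM after 48 h. In the ZMYND8 line MYC was 222 and 235 CPM, then 257 and 266 CPM, then 207 and 206 CPM. The highest levels of each line were at 6 h and the lowest at 48 h. MYC was 1.23-fold higher in ZMYND8 cells untreated, 1.27-fold at 6 h and 1.58-fold at 48 h (0.66 ± 0.05, adjusted p 1.26e-12). At 48 h it fell 1.43-fold in GFP cells, whereas in ZMYND8 cells the change was −0.15, which was 0.06 under scaling to total counts, and the interaction was 0.37 ± 0.06 (adjusted p 7.34e-05). The 6 h rise in GFP cells, 0.15, was not called without replicate 1 of untreated cells (0.12) or replicate 1 at 6 h (0.08), and the fall in ZMYND8 cells was not called without replicate 2 of untreated cells (−0.12, adjusted p 0.0615).

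**Figure D4:**
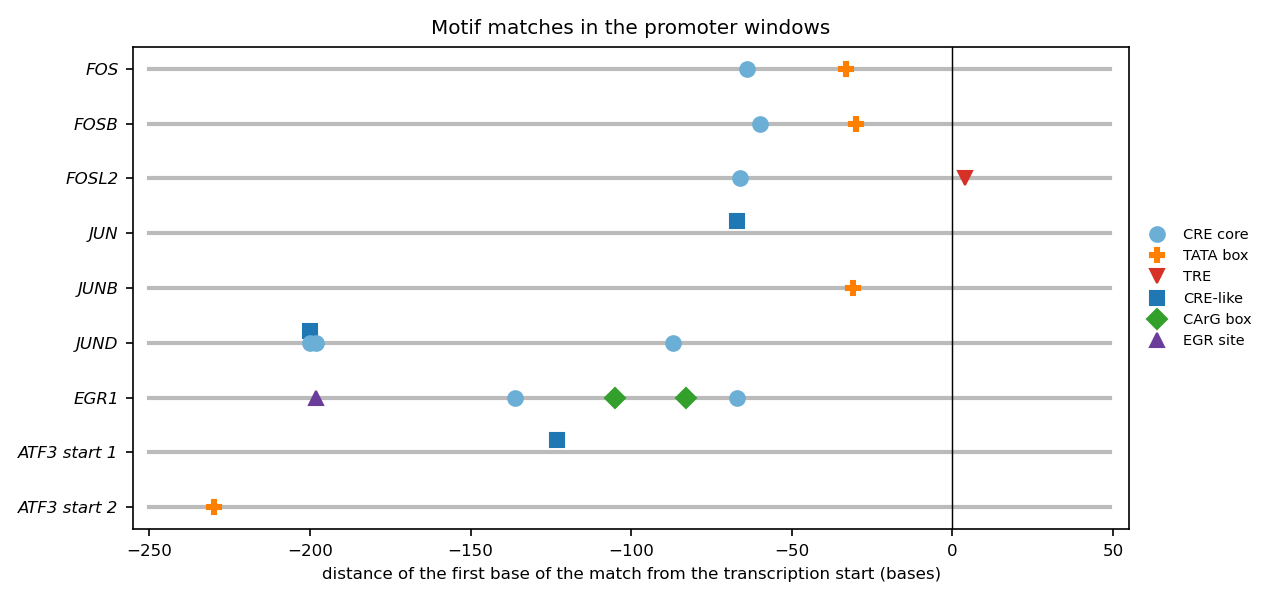
Positions of motif matches in the promoter windows of 8 genes (ATF3 with 2 starts), as the distance in bases of the first base of each match from the transcription start; grey bars are the windows searched. FOS, FOSB and FOSL2 each held a CRE core between 66 and 60 bases before the start, and the CArG boxes were in EGR1 alone of these windows.

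The transient system needs its libraries described first. Replicate 2 with doxorubicin and replicate 2 labelled ZMYND8 plus doxorubicin were near-identical: the chi-square of their counts, over its degrees of freedom, was 1.401, where counting error alone gives about 1. All other transient pairs gave 9.706 to 58.26, and replicate pairs of the inducible system gave 2.194 to 5.211. ZMYND8 mRNA was 219 and 199 CPM in control cells, 182 and 123 CPM with doxorubicin and 160 and 125 CPM in libraries labelled ZMYND8 plus doxorubicin, so it was not higher in the libraries labelled as overexpressing it. Whether the near-identical libraries come from 1 sample, whether the labels are right and whether the construct's mRNA is counted could not be told from the counts. Replicate 2 with doxorubicin was also the deepest library of the system. The 2 control libraries differed in mitochondrial share, 7.37% and 3.79%. Summed luminal, MDA-MB-231 and fibroblast markers were higher in both control libraries than in every treated library, and the part of this in the changes below was not tested. Results for the 9 genes tested are therefore given with and without both near-identical libraries, a choice made after seeing the data, and other genes only with all libraries. Without the pair the treated groups have 1 library each, which are assumed to vary like the control pair.

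Against control, doxorubicin changed 1 of 9 tested genes, MYC, which fell, while none rose, and 2.98% of all genes were called higher and 2.15% lower. In libraries labelled ZMYND8 plus doxorubicin 1 gene was up and 1 down, beside 3.85% and 2.97% of all genes. In this fit, which ignores replicate numbers, few of all genes were called, so 1 call in 9 genes is no more than a description. With the replicate number as a block, which the labels do not call a pairing, EGR1 and ATF3 were called up with doxorubicin as well. ATF3 was also called up in labelled libraries with the block. Both directions together, that fit called 2410 of 15697 genes with doxorubicin and 2795 in labelled libraries. Calls were thus more frequent among all genes too. Between both treated groups edgeR called 0 of 9 genes up and 0 down, and 0% of all genes either way. At an unadjusted p under 0.05 that comparison held 54 genes in all and 0 of the 9, and DESeq2 called 0. Without the near-identical pair it held 27 called genes of 16035 tested, 0 of the 9 among them.

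MYC was 319 and 144 CPM in transient control cells, 109 and 75.7 CPM with doxorubicin and 92.8 and 76.8 CPM in libraries labelled ZMYND8 plus doxorubicin. Treated and control libraries did not overlap, though the control libraries differed widely from each other. Such separation was common in this system. Of all genes, 24.8% were lower and 25.6% higher without overlap with doxorubicin, and 25% and 27% in labelled libraries. MYC fell 2.51-fold with doxorubicin (−1.33 ± 0.33, adjusted p 0.0449 by edgeR's test) and 2.72-fold in the labelled libraries (−1.45 ± 0.34, adjusted p 0.0289). Without both near-identical libraries these were −1.07 (adjusted p 0.133, not called) and −1.33 (adjusted p 0.0208). The first call was also lost without control replicate 1 (−0.66), without doxorubicin replicate 2 (−1.08) and in a fit of only those groups (−1.32, adjusted p 0.0561). The other was lost without control replicate 1 (−0.78) and without labelled replicate 1 (−1.59) or 2 (−1.33).

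EGR1 was 6.11 and 1.22 CPM in control cells, 14.6 and 8.54 CPM with doxorubicin and 35.5 and 9.36 CPM in labelled libraries. Control replicate 2 rests on 7 counts. Treated libraries were all above control libraries. In the labelled libraries EGR1 was 6.20-fold higher (2.63 ± 0.69, adjusted p 0.0462), and with doxorubicin alone the value was 1.64 ± 0.70 (adjusted p 0.197). Without both near-identical libraries they were 3.28 and 2.02, from 1 treated library each. The labelled library kept there is the high one, at 35.5 CPM. With the block doxorubicin alone gave 1.90 (adjusted p 0.00469 by edgeR's test). The call in the labelled libraries was lost without control replicate 2 (1.87, adjusted p 0.135), without labelled replicate 1 (1.37, 0.319) and with DESeq2 (2.60, 0.125).

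ATF3 was 11.8 and 2.44 CPM in control cells, 23.8 and 14.3 CPM with doxorubicin and 22.66 and 13.95 CPM in labelled libraries, again with no treated library below a control library. Its values of 1.40 (adjusted p 0.154) and 1.37 (adjusted p 0.148) were not called, whereas with the block they were 1.57 (adjusted p 0.00666) and 1.49 (adjusted p 0.00866). Without both near-identical libraries they were 1.76 and 1.66, from 1 treated library each. Without control replicate 1, which leaves 1 control library, they were 2.91 and 2.88. FOS was 2.48 and 1.39 CPM in control cells, 2.08 and 3.05 CPM with doxorubicin, and 8.45 and 1.97 CPM in labelled libraries. Only labelled replicate 1 stood out. The value in labelled libraries was 1.43 (adjusted p 0.208 by edgeR's test). Without the near-identical pair it was 2.11, which rests on that 1 labelled library. With doxorubicin alone the value was 0.48 and, without the pair, 0.12, neither called.

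JUNB was 62.2 and 23.1 CPM in control cells, 53.1 and 46.7 CPM with doxorubicin and 83.5 and 50.4 CPM in labelled libraries, with values against control of 0.23 and 0.65, neither called. Without the near-identical pair these were 0.33 and 0.96 (adjusted p 0.883 and 0.109), and without control replicate 1 the labelled libraries gave 1.51 (adjusted p 0.0284). In control, doxorubicin and labelled libraries in turn, FOSL1 was 450 and 294, 331 and 303 and 473 and 284 CPM, and FOSL2 193 and 255, 267 and 283 and 304 and 281 CPM. In the same order JUN was 179 and 125, 158 and 147 and 182 and 151 CPM, and JUND 180 and 125, 149 and 200 and 188 and 194 CPM. Control and treated libraries overlapped for FOSL1 and JUN, and for JUND with doxorubicin alone, while FOSL2 was higher in every treated library. Being higher without overlap held for 25.6% of all genes with doxorubicin and 27% in labelled libraries. FOSL1, FOSL2, JUN and JUND ranged from −0.23 to 0.38 against control and were not called with or without the near-identical libraries. FOSB had 4 and 1 counts in control, 5 and 34 with doxorubicin and 6 and 8 in labelled libraries, too few to be tested. Per length FOSL1 was highest in each transient condition, at 197 ± 58.4 RPKM in control cells, followed by JUND at 81.9 ± 20.5 RPKM, which lay below it by more than their spread.

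**Figure D5:**
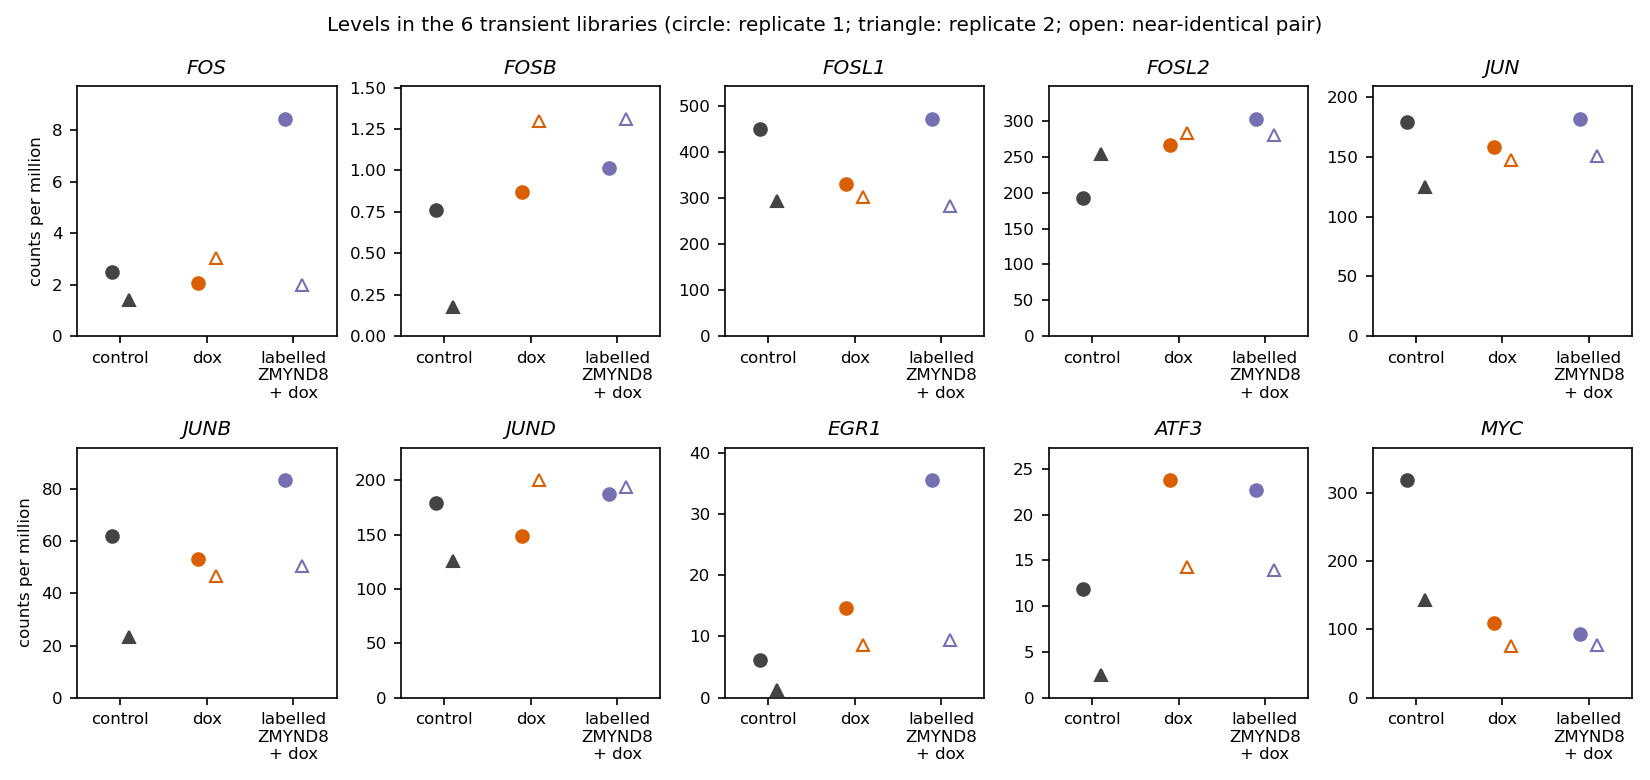
CPM of each gene in the 6 transient libraries, on linear axes from 0 that differ between panels; circles are replicate 1, triangles replicate 2, and open triangles the near-identical pair. MYC lay between 75.7 and 109 CPM in the 4 treated libraries and at 144 and 319 CPM in control cells, whereas the high value of FOS and EGR1 was in 1 library.

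The counts of the lists below are read against the shares of all genes given above for the same comparison. The lists were chosen with earlier results of these data known, so these contrasts only describe them. Other immediate early genes were mostly higher in the ZMYND8 line, well above the 28.4% to 28.9% of all genes. Of 22 tested, 18 were higher and 3 lower in untreated ZMYND8 cells, 19 and 2 at 6 h, and 19 and 1 at 48 h, with medians of 1.07, 0.82 and 0.87 beside −0.04 to 0 for all genes. DUSP1, which encodes a phosphatase that shuts off MAP kinases, was 276 and 281 CPM in untreated ZMYND8 cells and 33.9 and 33.2 CPM in GFP cells (3.05 ± 0.06). KLF4, a zinc finger factor, was 274 and 282 CPM against 65.8 and 65.2 CPM (2.09 ± 0.04). With doxorubicin 14 rose and 6 fell in GFP cells at 48 h, and 12 and 4 in ZMYND8 cells. PPP1R15A, which encodes a stress phosphatase subunit, went from 116 and 119 CPM to 298 and 303 CPM at 48 h in GFP cells (1.35 ± 0.05) and from 346 and 368 CPM to 912 and 848 CPM in ZMYND8 cells. KLF6 fell by 1.16 and 1.14. The interaction was called for 2 up and 7 down at 6 h and for 3 up and 6 down at 48 h.

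Upstream, in the list of serum response factor, its partners and MAP kinases, the share higher in the ZMYND8 line was near that of all genes. Somewhat more of these genes than of all genes were lower untreated and at 48 h. Of 28 genes, 9 were higher and 11 lower in untreated ZMYND8 cells (median 0.00), 10 and 6 at 6 h, and 8 and 13 at 48 h. ELK1, a partner of serum response factor at CArG boxes, was 128 and 131 CPM against 77.8 and 80.3 CPM untreated (0.71 ± 0.05), and MAPK13, a p38 kinase, was 84.8 and 79.8 CPM against 229 and 245 CPM (−1.53 ± 0.05). With doxorubicin at 48 h 4 rose and 15 fell in GFP cells and 3 rose and 20 fell in ZMYND8 cells, with medians of −0.23 and −0.36, so that falls were more frequent than the 31.8% and 30.8% of all genes. SRF itself rose at 6 h, by 0.43 in GFP cells and 0.31 in ZMYND8 cells. At 6 h in all, 6 genes rose and 14 fell in GFP cells and 7 and 12 in ZMYND8 cells.

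Feedback inhibitors of MAP kinases and EGR factors were more often higher in the ZMYND8 line than the 28.4% to 28.9% of all genes. Of 17 genes, DUSP1 among them, 11 were higher and 3 lower in untreated ZMYND8 cells (median 0.31), 10 and 4 at 6 h, and 10 and 2 at 48 h. DUSP10 was 91.5 and 100 CPM against 33.2 and 32.9 CPM (1.54 ± 0.06), while DUSP6, which acts on ERK, was 105 and 106 CPM against 265 and 270 CPM (−1.35 ± 0.04). With doxorubicin falls were again more frequent than among all genes. At 48 h 3 rose and 11 fell in each line, with medians of −0.32 and −0.40, and DUSP4 fell by 1.65 in GFP cells and 1.06 in ZMYND8 cells. NAB2, the EGR1 corepressor, rose by 0.51 and 0.22.

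Possible binding partners of AP-1 factors, the CREB, ATF, BATF and MAF genes, numbered 15, and more of them than of all genes were higher in the ZMYND8 line at 6 and 48 h. In untreated ZMYND8 cells 6 were higher and 3 lower (median 0.05), at 6 h 9 and 1 (0.42), and at 48 h 8 and 2 (0.37). MAFK, a small MAF protein, was 156 and 150 CPM against 57.4 and 56.3 CPM untreated (1.43 ± 0.05). CREM rose at 48 h by 1.10 in GFP and 1.07 in ZMYND8 cells, and JDP2, an AP-1 repressor, fell by 1.06 in each. At 48 h 5 rose and 7 fell in GFP cells and 8 rose and 4 fell in ZMYND8 cells.

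Genes that AP-1 is known to act on moved both ways, with more falls than among all genes at 48 h. Of 20 tested of 21, 7 were higher and 10 lower in untreated ZMYND8 cells (median −0.29), 7 and 7 at 6 h, and 7 and 12 at 48 h (−0.40). IL11, a cytokine, was 208 and 199 CPM against 20.02 and 17.35 CPM untreated (3.44 ± 0.06), and CXCL8, a neutrophil chemokine, was 1.79 and 3.41 CPM against 55.4 and 54.4 CPM (−4.35 ± 0.13). With doxorubicin at 48 h 4 rose and 14 fell in GFP cells (median −0.65) and 5 rose and 13 fell in ZMYND8 cells (−0.44). MMP1, a collagenase, rose by 1.12 and 2.34, and VEGFA, the angiogenic factor, fell by 1.62 and 1.38. IL6 was 238 and 230 CPM in ZMYND8 cells at 48 h against 62.5 and 62.8 CPM in GFP cells (1.90 ± 0.05). The interaction was called up for 10 and down for 1 at 6 h and up for 9 and down for 5 at 48 h.

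MYC targets, mainly genes of ribosome production, also rose at 6 h and fell later. Of 27, 23 rose and 1 fell at 6 h in GFP cells (median 0.95 beside −0.05 for all genes) and 24 rose and 1 fell in ZMYND8 cells (0.59). From 6 to 48 h 1 rose and 23 fell in GFP cells (−0.66) and 1 rose and 22 fell in ZMYND8 cells (−0.44). ODC1, the rate-limiting enzyme of polyamine synthesis, was 53.7 and 50.7 CPM in untreated GFP cells and 186 and 189 CPM at 6 h (1.84 ± 0.05). NOLC1, a nucleolar chaperone, rose by 1.38 in GFP and 1.02 in ZMYND8 cells. LDHA, which makes lactate, fell at 48 h by 1.26 and 1.65. At 48 h against untreated 15 rose and 3 fell in GFP cells, where MYC itself was lower, and 15 and 6 in ZMYND8 cells. Between lines 22 were higher and 2 lower untreated (0.38), 14 and 4 at 6 h, and 19 and 3 at 48 h (0.28). The 6 h interaction was called up for 1 and down for 16 of these genes.

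Partners of MYC in its network, 12 tested of 13, moved both ways. In GFP cells 5 rose and 2 fell at 6 h, and 4 rose and 7 fell from 6 to 48 h. MXD1, which takes MAX away from MYC, was 48.97 and 50.59 CPM against 19.8 and 16.5 CPM untreated (1.45 ± 0.08) and rose by 0.91 at 48 h in GFP and 0.90 in ZMYND8 cells. MXI1, another such antagonist, was lower in untreated ZMYND8 cells (−1.03 ± 0.05) and fell by 1.34 and 1.08 at 48 h. In all, 5 were higher and 3 lower untreated, 4 and 5 at 6 h and 5 and 5 at 48 h. With 48 h of doxorubicin, 4 rose and 5 fell in each line. MAX rose at 6 h by 0.39 and 0.28.

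Known inducers and partners of ATF3, 13 genes of the stress response, were mixed, with more genes lower than among all genes in untreated ZMYND8 cells and with the drug. In untreated ZMYND8 cells 4 were higher and 7 lower (median −0.12), at 6 h 6 and 2, and at 48 h 5 and 3. ATF4, which activates ATF3 in amino acid and endoplasmic reticulum stress, fell at 48 h in GFP cells by 0.95, while ATF5 rose by 1.87 and 1.67 in GFP and ZMYND8 cells. DDIT4, an mTOR inhibitor, fell from 603 and 638 CPM to 81.3 and 77.0 CPM in GFP cells (−2.97 ± 0.05) and by 3.10 in ZMYND8 cells. At 6 h of the drug 2 rose and 8 fell in GFP cells and 4 and 5 in ZMYND8 cells, and at 48 h 5 and 7 in GFP cells and 4 and 7 in ZMYND8 cells.

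In the transient system these 8 lists held few calls, and the share that rose with doxorubicin was no more than the 2.98% of all genes. The genes that rose were CREM, IL11 and MXD1. Falls were few too, but 3 of 15 feedback inhibitors fell with doxorubicin and 4 of 15 were lower in labelled libraries, beside 2.15% and 2.97% of all genes. IL11 was 15.1 and 7.66 CPM in control cells and 47.9 and 40.7 CPM with doxorubicin (1.96 ± 0.41, adjusted p 0.0248). MXI1 fell by 1.41, SPRY1 by 1.46, DUSP4 by 1.20 and CCN2 by 1.06. Of the MYC targets 0 of 26 were called by edgeR in either treated group. KLF4 and NR4A1 were called higher in libraries labelled ZMYND8 plus doxorubicin, by 1.87 and 1.57. In those libraries 2 of 16 other immediate early genes and 2 of 15 AP-1 target genes rose, beside 3.85% of all genes. So did 1 of 13 AP-1 partners, 1 of 26 genes of the serum response factor list and 1 of 11 MYC partners, and none in the remaining lists.

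The genes whose levels were most like each of the 10 over the 12 inducible libraries were sought among 10439 (for FOSB 10440) genes with enough counts, by Pearson's r of log2 CPM. For FOS they were CKS1B (0.992) and MAPRE2 (0.991), and for ATF3 MAPRE2 (0.995) and PIP5K1A (0.991). For EGR1 they were HSPB8 (0.994) and SCAF1 (0.994), for FOSB DDIAS (0.995) and PA2G4 (0.991), and for FOSL1 CDK8 (0.988) and CNOT6 (0.983). FOSL2 was nearest to XKR8 (0.996) and CENPF (0.986), JUN to FEM1C (0.990) and EPHA4 (0.990), and MYC to ALG13 (0.986) and MCRIP1 (0.985). JUNB was nearest to TMEM156 (0.962) and ZNF506 (0.955), and JUND to AHDC1 (0.952) and IPP (0.923), the lowest values here. None of the 10 was among the 2 nearest of another, and the libraries share 6 conditions, so these values are a description.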

How the data were processed

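Poly(A) RNA of 18 libraries in 9 conditions was sequenced, and the values used were the raw counts per gene that the authors deposited. Per the submitters' notes, the authors trimmed reads with Trim Galore, aligned them to hg38 with HISAT2 and made the counts with featureCounts 1.6.4 on GENCODE 31, set to reverse-stranded reads, while the paper names TopHat and Bowtie2. The file held 60603 genes, of which 60261 were matched to symbols.

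The transient and inducible systems were fitted apart with edgeR 4.0.16 in R 4.3.3, using TMM scaling, filterByExpr with a minimum count of 10 and quasi-likelihood tests, at a Benjamini-Hochberg adjusted p of at most 0.05 in 14 comparisons. CPM and RPKM were computed from the counts, RPKM with the summed exon length. The code was first run on simulated data. DESeq2 1.42.0, other scalings, filters and designs, the criterion of the study and fits without single libraries were tried as alternatives.

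All 10 genes were named, together with 13 lists of 185 symbols. The genes and lists were chosen with earlier results of these data known. From each list, genes were named by the 2 smallest adjusted p per direction among those called with an average log2 CPM of at least 1 and no overlap between libraries, and then followed in the other comparisons. Nearest genes were the 2 with the highest Pearson's r among those with an average log2 CPM of at least 3. Depth was 5729294 to 24713822 counts per transient and 18300628 to 23724398 per inducible library, so low levels rest on few counts, such as 7 of EGR1 in transient control replicate 2.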

Additional observations from a re-analysis of the deposited data

Results flagged for a closer look

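For the results here, the response to doxorubicin differed between GFP and ZMYND8 cells by the interaction test, in log2 change of ZMYND8 minus GFP cells. At 6 h these were FOSB (−1.08), FOSL1 (−0.61), JUND (−0.38) and FOSL2 (0.16). The FOSB and FOSL2 calls at 6 h were lost with DESeq2 and in 4 and 7 of 8 fits that left out 1 library. At 48 h they were FOSB (−1.44), EGR1 (−1.20), FOS (−0.81), FOSL1 (−0.60), JUND (−0.52), FOSL2 (−0.24), JUN (0.27), MYC (0.37) and JUNB (0.67). For FOS, FOSB and EGR1 the negative values go with a higher level in untreated ZMYND8 cells and a smaller fold rise. For FOSL1 they go with a smaller rise at 6 h and a deeper fall at 48 h.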

How the results depend on the processing

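Over the fits that left out 1 library, 588 results for single genes kept their direction and side of the threshold, 34 lost and 6 gained the call. Scaling to total counts reversed 7: at 48 h against untreated in GFP cells FOSL1 (0.00238), FOSL2 (0.0287), JUN (0.11) and JUND (0.23), and in ZMYND8 cells MYC (0.0558), and at 48 h against 6 h JUNB in GFP cells (0.11) and JUN in ZMYND8 cells (0.26). It also lost 4 calls, those of the FOSL2 6 h interaction (0.0834), MYC at 48 h against 6 h (−0.0525) and FOSL1 and JUN at 6 h in ZMYND8 cells. It gained 3, for FOSB at 48 h against 6 h in ZMYND8 cells and for EGR1 and ATF3 in the 6 h interaction. Over the settings that kept every library, the 6 h interaction held at most 5 called genes. For doxorubicin against control in the transient system, the number of genes called (1) was 3 with no filter, 3 with the replicate block, 0 with only the groups of the comparison, 3 by the criterion of the study, 2 without both near-identical libraries, which was chosen after seeing the data, and 0 to 1 with 1 library left out. For libraries labelled ZMYND8 plus doxorubicin against control (2) it was 1 with DESeq2, 1 with at least 10 counts in every library, 4 without both near-identical libraries and 0 to 3 with 1 left out. The 6 h interaction (4) gave 2 with DESeq2 and 2 to 4 with 1 left out. The criterion of the study, an unadjusted p of at most 0.05 with a log2 change of at least 1 (transient) or 1.5 (inducible), changes both cuts at once and gave 1, 3 and 0 in GFP cells (6 h, 48 h, and 48 h against 6 h), 1, 3 and 0 in ZMYND8 cells, 4, 3 and 2 between lines (untreated, 6 h, 48 h) and 0 for both interactions. The share of all genes that pass this criterion was not counted, so its counts are a description only. DESeq2 lost 8 calls: EGR1 in labelled libraries, FOSL1 and JUN at 48 h and FOSB and JUNB at 48 h against 6 h in GFP cells, FOSL1 at 6 h in ZMYND8 cells, and FOSB and FOSL2 in the 6 h interaction. Over all genes in the transient system, no filter called 1505 of 37454 with doxorubicin and 1774 in labelled libraries. The block called 2410 and 2795 of 15697, DESeq2 1177 and 1454 of 14479, and at least 10 counts 767 and 1040 of 13721. Only the groups compared gave 614 of 15256 with doxorubicin. In the 6 h interaction DESeq2 called 1823 of 11875. For labelled libraries against control, no filter, the replicate block and the criterion of the study each gave 3 called genes. Elsewhere the cause was not tested. Libraries with the same replicate number deviated together by correlations of −0.142 to 0.0505 over 15 pairs of inducible groups and of 0.202 to 0.411 over 3 transient ones, 1 of which holds the near-identical libraries. A lone library left in a group is assumed to vary like the other groups. At the depth of the transient libraries FOS, FOSB and EGR1 rest on few counts.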

Other observations

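There was 1 line per construct and 2 libraries per condition, so differences between GFP and ZMYND8 cells belong to these lines. The transient libraries include a near-identical pair and show no higher ZMYND8 mRNA where the label names it. Counts are of mRNA, and the levels, phosphorylation and binding of the AP-1, EGR1, ATF3 and MYC proteins were not measured. Samples at 6 and 48 h do not show the first hour, in which immediate early genes usually peak.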
